A study of Populus tremula x Populus alba with 14 samples.

Results

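The outer bark of old stems was compared with the outer bark of young stems in hybrid poplar (Populus tremula x Populus alba, wild type, clone INRA 717-1B4), a common model of woody plants. The comparison holds 7 of the 14 RNA sequencing libraries of the series, chosen by the names of their count columns: 4 from old stems, 6 to 8 mm in diameter, and 3 from young stems, 4 to 5.5 mm in diameter. Outer bark was labelled as phellem with phellogen, and the other 7 libraries are inner bark (secondary phloem with the vascular meristem) of stems of the same ages. All trees were of this 1 clone, kept in a greenhouse and placed outdoors only in the warm months, so the groups share genotype and growing site. In the sample titles the leading numbers are lower for all old than for all young libraries. Any order they record cannot be told apart from age. The labels give an age class and a range of diameters for each group but no age in years and no diameter per stem. Nothing in them states that each library is a tree of its own. The p-values therefore reflect only the spread among the libraries, part of which may be technical.

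The outer bark of a woody stem is the periderm. Its meristem, the phellogen, divides to form phellem, or cork, toward the outside, and cork cells deposit suberin and wax in their walls and die when mature. As a stem thickens the epidermis is lost, the periderm becomes the surface tissue, and the green cortex below it receives less light. Because whole bark layers were ground, fewer cells of a type and less RNA per cell cannot be told apart in these data.

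The files give each gene only an identifier, which the symbol column repeats in 100% of rows, so no gene is called by a name or a function below. Markers of cork, cortex, phloem or wood could not be looked up for the same reason, and the labelled tissue was not checked against them. Total counts in outer bark were between 13419965 and 15980636 in the 4 old libraries and between 13807373 and 15884964 in the 3 young ones. CPM below are counts per 1000000 counts of the scaled library size.

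Each old library had fewer genes above 1 CPM than any young one, and its most abundant genes took a larger share of its counts, but neither difference passed its test. At least 1 CPM (here from the raw total) was found for 22129, 24222, 24787 and 24133 genes in old replicates 1 to 4, against 25215, 25117 and 25473 genes in young replicates 1, 2 and 4. All old libraries were below all young ones, and old replicate 1 was the lowest. The 100 most abundant genes of each library took 14.3%, 11.5%, 10.4% and 11.2% of the counts in old replicates 1 to 4 and 8.79%, 10.2% and 8.91% in young replicates 1, 2 and 4. The values did not overlap between the ages, but the lowest old and the highest young library were close. The means were 23818 ± 1162 genes in old and 25268 ± 184 genes in young bark, and 11.8% ± 1.7 in old and 9.30% ± 0.77 in young bark (SD, n = 4 and 3). Each difference had a two-sided exact permutation p of 0.0571, and 0.114 after Benjamini-Hochberg adjustment over 4 library measures, where 35 arrangements allow no p below 0.0286. The number of genes that together held 50% of the counts was 2174.5 ± 300 in old and 2574 ± 181 in young bark (SD, n = 4 and 3), with overlapping values (exact permutation p = 0.114).

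The main axis of variation among the outer bark libraries separated the ages, but it also set old replicate 1 apart. On the leading principal component of log2 CPM (60.1% of the variance), old replicates 1 to 4 lay at -181.4, -55.0, -14.2 and -56.5, against 73.5, 117.6 and 116.0 for young replicates 1, 2 and 4. The ages did not overlap, and within each age 1 library lay apart. Old replicate 1 differed from the mean of the other old libraries by 1.28 log2 units (root mean square over genes), while old replicates 2 to 4 differed from the mean of the rest by 0.56 to 0.69. Young replicate 1 differed from the other young libraries by 0.86, against 0.65 and 0.58 for young replicates 2 and 4. Old replicate 3 and young replicate 1 were the closest pair across the ages, with a correlation of log2 CPM across genes of 0.920. That was higher than the 0.909 and 0.918 of young replicate 1 with young replicates 2 and 4, so this pair was at least as alike as some libraries of 1 age. Genes are not independent replicates, and these correlations describe the libraries only.

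**Figure D1:**
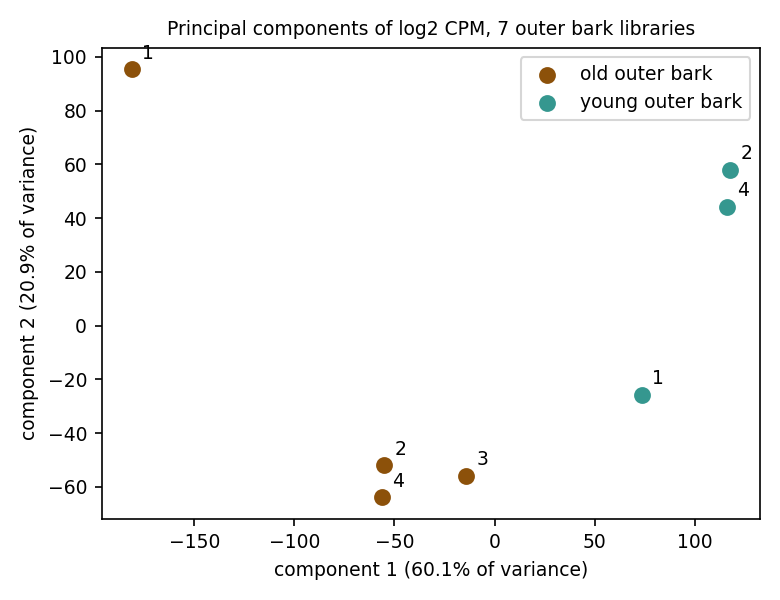
Each point is 1 outer bark library, labelled with its replicate number, on the first and second principal components of log2 CPM (arbitrary units; the axes give the share of variance). Old libraries lie to the left of young ones, with old replicate 1 far from the other old libraries and young replicate 1 and old replicate 3 nearest to the other age.

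Outer bark differed with stem age in both directions, and the larger differences were mostly decreases in old stems. Of 26740 genes tested, 1490 were higher in old outer bark (5.57% of genes tested) and 2289 were lower (8.56%), 3779 in all (14.1%; edgeR quasi-likelihood test of the 7 libraries, Benjamini-Hochberg adjusted p below 0.05). Genes called higher in old stems differed by a median of 2.19-fold, with quartiles of 1.80-fold and 3.08-fold. Genes called lower differed by a median of 4.88-fold, with quartiles of 2.91-fold and 8.68-fold. Differences of at least 4-fold were found for 231 of the genes called higher (15.5%) and for 1355 of those called lower (59.2%). At 16-fold or more there were 27 and 250 genes. The standard error of the log2 fold change was also larger among genes called lower (median 0.44) than among genes called higher (median 0.24).

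The same asymmetry was present over all genes of that fit, called or not. Over all genes tested the median log2 fold change was 0.06, yet 417 genes were at least 4-fold higher and 2020 at least 4-fold lower in old outer bark, by fitted values. Genes of low level that entered the test through only 1 age had to differ and can add to both counts. Leaving out single libraries gave between 340 and 768 genes at least 4-fold higher and between 1933 and 2506 at least 4-fold lower, apart from old replicate 1, without which 1674 genes were lower. Decreases thus outnumbered increases of this size whichever library was left out. CPM values of all 4 old libraries were above all 3 young ones for 4778 genes (17.9%) and below them for 4866 genes (18.2%), so the number of genes that separated the ages was nearly equal in the 2 directions.

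**Figure D2:**
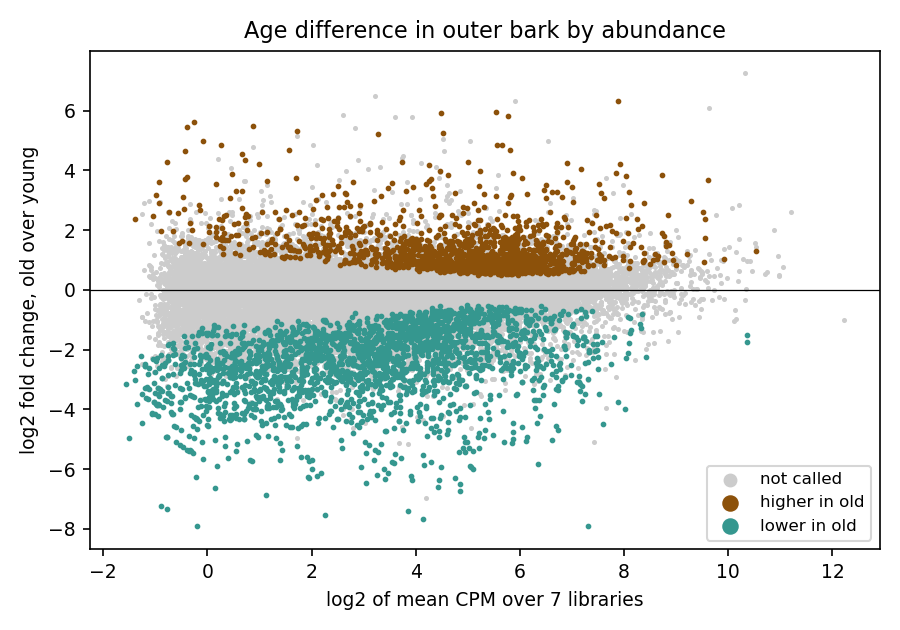
Each point is 1 of the 26740 genes tested, with the log2 of its mean CPM over the 7 outer bark libraries on the horizontal axis and its fitted log2 fold change, old over young, on the vertical axis. Genes called higher in old stems are mostly abundant with moderate differences, and genes called lower reach larger differences and lower abundance.

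The direction of the difference varied with mean abundance over the 7 libraries. Genes called higher in old bark had a median of 44.2 CPM in old and 20.2 CPM in young libraries. Genes called lower had a median of 2.99 CPM in old and 17.0 CPM in young libraries. When genes were split into 5 classes of equal size by mean log2 CPM, the share called higher was 1.98%, 3.25%, 5.29%, 7.85% and 9.48% from the least to the most abundant class, and the share called lower was 14.1%, 11.6%, 8.49%, 5.01% and 3.59%. Among called genes, those of the least abundant class were therefore mostly lower and those of the most abundant class mostly higher. The classes came from the same 7 libraries, 4 of them old. A gene low in old bark is thus moved to a lower class and a gene high there to a higher one. In young libraries alone the medians were close, at 20.2 CPM for genes called higher and 17.0 CPM for genes called lower. The trend therefore restates the age difference in part. Genes of low abundance that were expressed at only 1 age entered the test through that age and had to differ, and counting error is largest there. Without old replicate 1 the same order of classes was found for increases, at 5.87% to 19.6%, while the share called lower was 18.0% in the least and 12% in the most abundant class.

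The genes called took a different share of the RNA at each age, a description that follows from how they were chosen. Genes called higher held 10.97%, 11.2%, 10.0% and 11.6% of the CPM in old replicates 1 to 4 and 5.68%, 4.50% and 4.50% in young replicates 1, 2 and 4. Genes called lower held 1.66%, 2.31%, 3.07% and 2.44% in old replicates 1 to 4 and 7.54%, 10.3% and 10.0% in young replicates 1, 2 and 4. Among old libraries replicate 3, and among young ones replicate 1, stood nearest to the other age for both groups of genes. Old replicate 3 was the lowest old library for 48.7% of the genes called higher and the highest for 57.7% of those called lower, against 20.0% and 22.7% over all genes tested. Young replicate 1 was the highest young library for 54.4% of the genes called higher and the lowest for 57.5% of those called lower, against 40.1% and 36.3% over all genes tested.

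The number of calls depended strongly on single libraries. Without old replicate 1 the count rose to 7285 genes, 3241 higher and 4044 lower. It was 570 without old replicate 2, 918 without old replicate 4, 125 without young replicate 2 and 412 without young replicate 4. Without old replicate 3 it was 2682, with 921 higher against 1490, and without young replicate 1 it was 3659. That last count was close to the full fit, but it held only 852 of the 1490 and 1751 of the 2289. With replicate 1 of both ages left out, 9166 genes passed, 3937 higher and 5229 lower. The share of calls that were increases moved too, at 39.4% with all 7 libraries, 44.5% without old replicate 1 and 13.1% without young replicate 4. In all 7 fits that left out 1 library, 18 genes were called higher and 100 lower, with median differences of 6.16-fold and 11.1-fold in the full fit. DESeq2 called 7526 genes in the 7 libraries, 3203 higher and 4323 lower, and held 1486 of the 1490 and 2286 of the 2289.

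**Figure D3:**
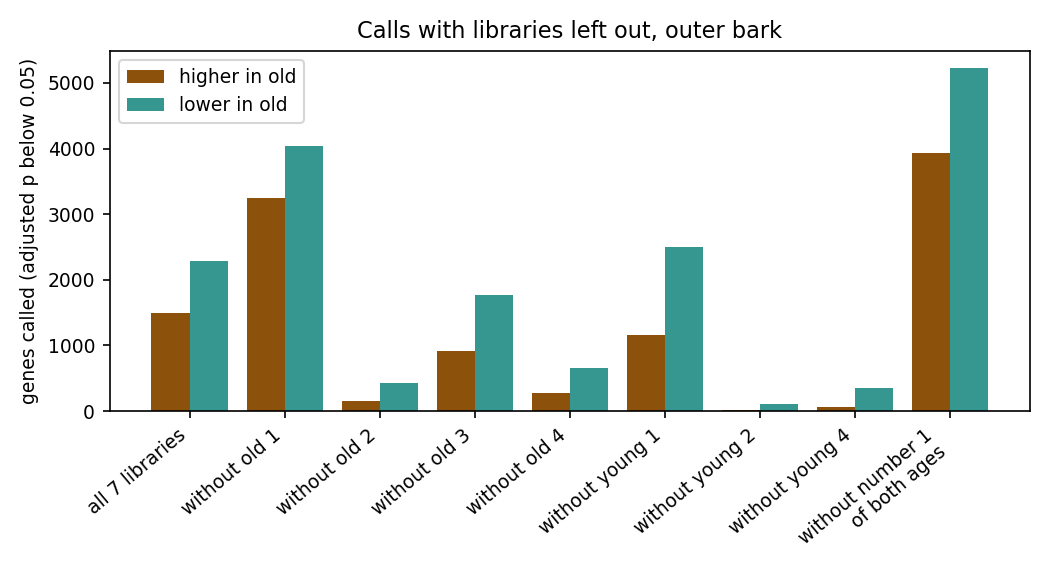
Bars give the number of genes called (adjusted p below 0.05) higher and lower in old than in young outer bark with all 7 libraries, with each library left out and with replicate 1 of both ages left out. Calls rise to 7285 without old replicate 1 and drop to 125 without young replicate 2, and decreases outnumber increases in each fit shown.

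A few genes came close to being present at only 1 age. There were 0 genes with 10 or more counts in every old library and none in the young ones. In the other direction 3 genes had 10 or more counts in every young library, between 14 and 34, and no count in any old one. Set against 3 counts over the old libraries together, they were 25.7-fold, 24.5-fold and 37.9-fold lower in old bark. These values allow for counting error in the old libraries only. They do not cover counting error in the young libraries or the spread among libraries. By mean level, 13 genes had at least 10 CPM in old and under 1 CPM in young bark, and 81 genes had the opposite pattern. The ages did not overlap in CPM for 9 of the 13 and 57 of the 81, beside 17.9% and 18.2% of all genes tested. The other genes overlapped between the ages despite their means. The 13 genes varied widely among the old libraries. Old replicate 1 held over 50% of their summed old CPM for 7 genes, and 3 others were at no more than 0.223 CPM in old replicate 1 and at 11.7 to 48.2 CPM in old replicates 2 to 4. Accordingly only 2 of the 13 reached 5 CPM in each old library. Of the 81 genes, 35 reached 5 CPM in each young library and 69 were lowest there in young replicate 1. Single libraries dominated many of these genes too. Over 50% of the summed young CPM lay in young replicate 4 for 35 genes, replicate 2 for 19 and replicate 1 for 1. Calls were made for 70 of the 81, beside 8.56% of all genes tested, and for 3 of the 13, beside 5.57%. These shares follow from how the genes were picked.

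Most of the abundant transcripts were shared by the ages. The 100 genes with the highest mean CPM in old and in young outer bark had 61 in common, which is 61% of each list. Of the 100 in old bark 14 were called higher in old stems and 2 lower, and of the 100 in young bark 2 were called higher and 4 lower, beside 9.48% higher and 3.59% lower in the most abundant of the 5 classes. These lists were chosen by level in the same libraries, so their direction is no independent result. The old list had a median rank of 74.5 in young bark and the young list a median rank of 71 in old bark. The 1 gene of the old list that ranked lowest in young bark stood at rank 14002 there, and the corresponding gene of the young list stood at rank 7798 in old bark.

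The identifiers with the largest fitted differences are given library by library, chosen among called genes whose CPM did not overlap between the ages and whose log2 CPM averaged 3 or more (1228 genes called higher and 925 called lower). Potri.010G002600 was at 1273, 151.2, 129.4 and 75.6 CPM in old replicates 1 to 4, against 2.71, 7.28 and 5.33 CPM in young replicates 1, 2 and 4. Every old library was at least 10 times any young one, and old replicate 1 was far above the other old libraries. Its mean was 407.3 ± 578 CPM in old and 5.10 ± 2.29 CPM in young bark (SD, n = 4 and 3). The log2 fold change was 6.32 ± 1.33 (SE; adjusted p = 0.0277 by edgeR), or 4.54 without old replicate 1. In inner bark of the same stem numbers it stood at 1325, 155.9, 133.0 and 49.9 CPM in old replicates 1 to 4 and at 2.74, 4.33 and 2.25 CPM in young replicates 1, 2 and 4. Old replicate 1 was thus the highest library in both layers.

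Potri.017G138800 was at 76.2, 69.0, 36.96 and 139.0 CPM in old replicates 1 to 4 and at 3.18, 0.0735 and 0.557 CPM in young replicates 1, 2 and 4. The old libraries were within 4-fold of each other, and the young ones rested on 54, 1 and 9 counts. Its mean was 80.3 ± 42.7 CPM in old and 1.27 ± 1.67 CPM in young bark (SD, n = 4 and 3). The log2 fold change was 5.94 ± 1.06 (SE; adjusted p = 0.0193 by edgeR), or 7.90 without young replicate 1. Inner bark of old stems held far less, at 1.46 to 13.4 CPM in 4 libraries, and young inner bark held 0.0735 to 1.16 CPM in 3. The log2 fold change in inner bark was 3.43 ± 1.07 (SE; edgeR adjusted p = 0.0582), and the age differences of the layers were not shown to differ (difference of log2 fold changes 2.63 ± 1.11 SE, edgeR adjusted p = 0.175).

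On the other side, Potri.019G050200 was at 2.52, 0.722, 1.42 and 1.47 CPM in old replicates 1 to 4, against 7.72, 788.5 and 311.6 CPM in young replicates 1, 2 and 4. Young replicate 1 was nearer to the old libraries than to the other young ones. Its mean was 1.53 ± 0.74 CPM in old and 369.3 ± 394 CPM in young bark (SD, n = 4 and 3). The log2 fold change was -7.91 ± 1.41 (SE; adjusted p = 0.0191 by edgeR), or -6.71 without young replicate 2. Inner bark showed the same order, with 0.153 to 1.86 CPM in old libraries and 4.75, 98.7 and 76.3 CPM in young replicates 1, 2 and 4. Its log2 fold change there was -5.87 ± 1.16 (SE; adjusted p = 0.0163 by edgeR).

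Potri.002G119300 was at 1.71, 5.92, 3.21 and 2.28 CPM in old replicates 1 to 4 and at 10.5, 298.8 and 247.6 CPM in young replicates 1, 2 and 4. Young replicate 1 again lay between the other young libraries and the old ones. Its mean was 3.28 ± 1.87 CPM in old and 185.6 ± 154 CPM in young bark (SD, n = 4 and 3). The log2 fold change was -5.82 ± 1.07 (SE; adjusted p = 0.0208 by edgeR). In inner bark it was at 6.08 to 18.2 CPM in old and at 18.3, 214.0 and 211.1 CPM in young replicates 1, 2 and 4, so the smallest gap between the ages was narrow there. Its fitted decrease was larger in outer than in inner bark, with a difference of log2 fold changes of -1.98 ± 0.45 (SE; edgeR with stems as blocks, adjusted p = 0.0321). This difference rests on pairing the layers by stem number and was not examined with single stems left out. The outer bark calls of the 4 identifiers were each lost without old replicate 2, young replicate 2 or young replicate 4, with edgeR adjusted p up to 0.109. Without old replicate 4 the calls of Potri.017G138800, Potri.019G050200 and Potri.002G119300 were lost as well (edgeR adjusted p of 0.051, 0.0627 and 0.0654), and without young replicate 1 that of Potri.010G002600 (0.0593). The limma voom test gave adjusted p of 0.0856 for Potri.019G050200 and 0.0692 for Potri.002G119300.

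**Figure D4:**
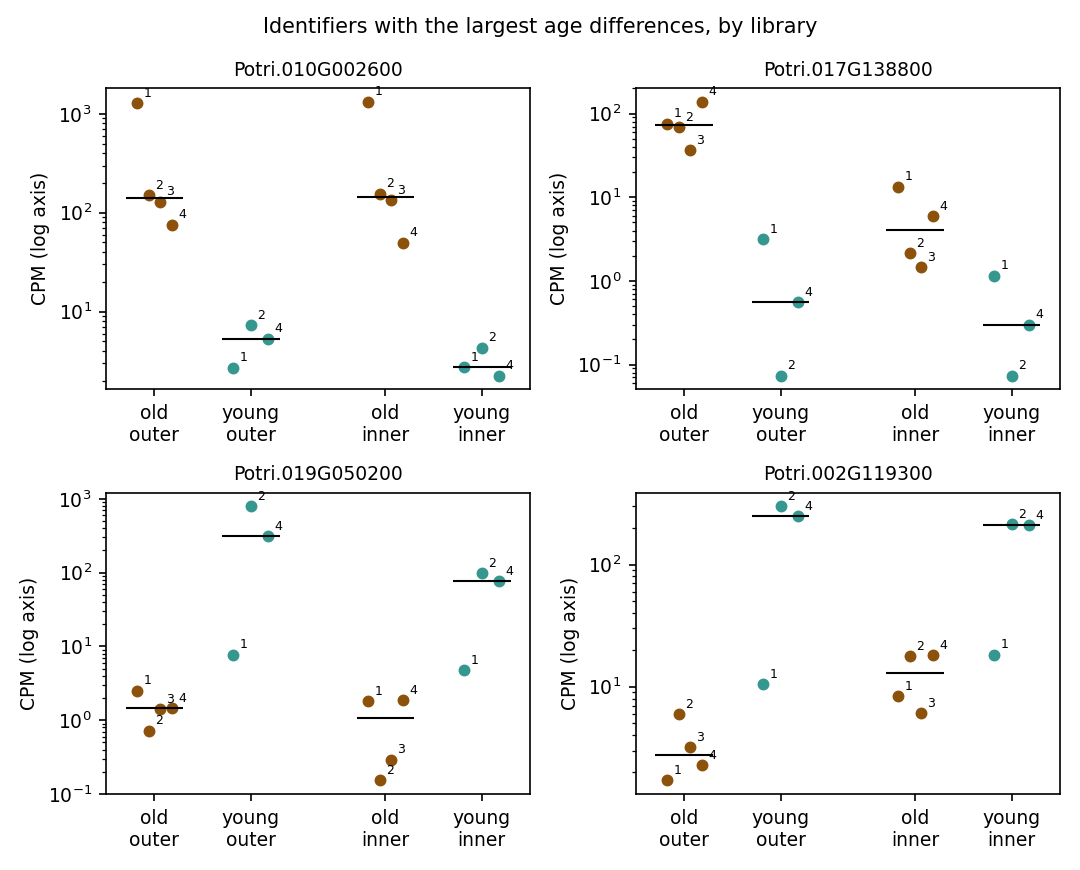
Points are single libraries, labelled with their replicate number, on a log axis of CPM, and the horizontal lines are group medians (n = 4 old and 3 young per layer). Outer and inner bark were scaled separately. The ages do not overlap in any panel's outer bark, and young replicate 1 is near the old libraries for Potri.019G050200 and Potri.002G119300.

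Some genes with neighbouring identifiers moved together. The files give no coordinates, so identifiers are compared only by their order among genes tested with the same prefix. The next identifier was called the same way for 152 of 1489 genes called higher (10.2%, against 5.57% of all genes tested) and for 308 of 2289 called lower (13.5%, against 8.56%). The next identifier was called lower for 6.92% of the genes called higher (against 8.56% of all genes tested). It was called higher for 4.41% of those called lower (against 5.57%). Runs of at least 3 consecutive tested identifiers called the same way numbered 18 for increases, with 58 genes, and 36 for decreases, with 136 genes. The 20 prefixes differed little, with between 11.5% and 16.3% of tested genes called. Near-identical neighbouring copies can share reads, so the members of a run are not independent measurements.

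The longest run held 15 identifiers of prefix T, all lower in old bark with log2 fold changes between -2.41 and -1.51 (edgeR adjusted p between 0.0169 and 0.0418). Their summed level was 63.1, 108.3, 138.0 and 63.6 CPM in old replicates 1 to 4, against 216.6, 404.9 and 541.7 CPM in young replicates 1, 2 and 4. All old sums were below all young ones, and young replicate 1 was the lowest young library. In inner bark 7 of the 15 were called lower in old stems, beside 12.2% of all genes tested there, and their median log2 fold change was -1.33, beside 0.06 over all genes. The longest run of increases held 5 identifiers of prefix 013, with log2 fold changes between 0.79 and 3.44 (edgeR adjusted p between 0.0304 and 0.0469). Their sum was 1705, 417.0, 234.4 and 434.3 CPM in old replicates 1 to 4 and 51.7, 129.1 and 68.1 CPM in young replicates 1, 2 and 4. All old sums were above all young ones, and old replicate 1 was by far the highest. A run of 5 identifiers of prefix 001 had larger differences, with a median log2 fold change of -4.15. Its sum was 6.31, 6.21, 15.9 and 3.01 CPM in old replicates 1 to 4 and 135.4, 193.1 and 96.7 CPM in young replicates 1, 2 and 4. Each of these runs was picked after its values were seen, and no test was made of it.

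**Figure D5:**
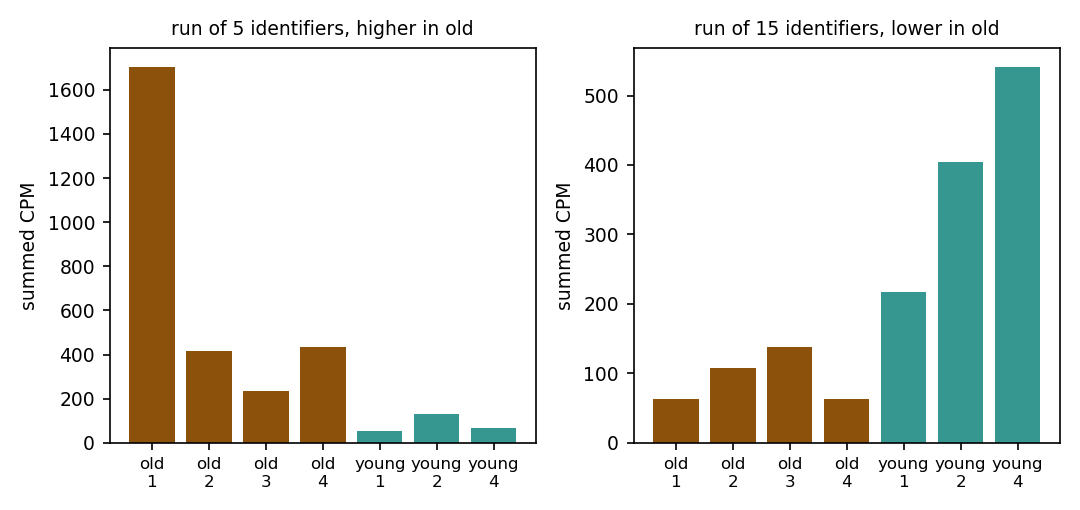
Bars give the summed CPM of 2 runs of consecutive tested identifiers in each outer bark library, 5 identifiers higher in old bark on the left and 15 lower in old bark on the right. The sums do not overlap between the ages, and old replicate 1 dominates the run on the left.

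The inner bark libraries carry the same stem numbers and were taken as a second layer of the same stems, not as an independent repeat. This pairing rests on the titles and on deviations that the layers of a number share. The leading numbers of the titles are consecutive for every pair but young stem 4. Fitted alone, inner bark had 2339 genes higher in old stems (9.02% of 25929 tested) and 3166 lower (12.2%). Of the genes called higher in outer bark and tested in inner bark, 1117 of 1456 were also called higher there and 0 were called lower. Of those called lower in outer bark, 1516 of 2251 were also called lower in inner bark and 0 were called higher. The median log2 fold change of the first group was 1.12 in outer and 1.16 in inner bark, and that of the second was -2.27 in outer and -1.83 in inner bark. The medians over all genes tested were 0.06 in both layers. Because these genes were chosen in outer bark, a larger value there follows in part from the choice.

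Whether the age difference itself differed between the layers was tested with the stems as blocks, and so rests on this pairing. Of 27673 genes tested, 2839 passed (10.3%), with a more positive age difference in outer bark for 905 and a more negative one for 1934 (edgeR adjusted p below 0.05). This split depended on the scaling, since RLE factors gave 1334 and 1553. The count was 1283 without old stem 2, 781 without young stem 2 and 896 without young stem 4. Over all genes tested the age difference was more negative in outer bark for 6.99% and more positive for 3.27%. Among the genes called lower in outer bark it was more negative for 500 of 2287 and more positive for 66, and among those called higher for 118 and 33 of 1488. These genes were chosen in the same outer bark libraries and the split over all genes depended on the scaling, so nothing is read from these counts.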

How the data were processed

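The deposited values used are raw counts of reads for every gene and library, per the file headers. They are whole numbers whose totals vary by library. Tools listed in the submitters' processing notes, with no role or version, include TopHat and Bowtie, HTSeq and Cufflinks, and DESeq and edgeR, after CASAVA and Trimmomatic in that list. Genome build and annotation are not given in the sources used here. Libraries were unstranded, per the labels' protocols, so overlapping antisense genes cannot be told apart. The authors' deposited comparisons between bark layers were not used, and 0 columns of per-sample values lacked a sample.

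Groups and replicate numbers came from the sample titles. The 7 outer bark libraries were fitted alone with edgeR 4.0.16 under R 4.3.3 (filterByExpr, which removed 14595 of 41335 genes, TMM factors, robust quasi-likelihood F test, 5 residual degrees of freedom). A fit of all 14 libraries, which counts the layers of a stem as independent, was an alternative. Principal components used log2 CPM with a prior count of 2. Within an age, libraries of both layers with the same number deviated together from their group means (correlations across genes of 0.60 to 0.82), so the titles' numbers were taken to pair the layers, and the difference between layers was fitted with stems as blocks (5 residual degrees of freedom). The fits were tested on simulated counts in which no library was made to stand apart from its group. The dependence on single libraries was therefore not examined there. Alternatives were RLE and upper-quartile factors, DESeq2 1.42.0, limma voom 3.58.1, other filters, a block by number and left-out libraries. Within each group every pair of libraries differed by more than sampling noise, and intervals from counts would cover counting error only.

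The comparison, its lists and its tests were chosen with earlier results of these data known. The 51 gene lists were defined by product names, which the files do not pair with identifiers, so 0 could be filled and none is reported. Printed identifiers are the 2 largest differences per direction under the stated conditions.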

Additional observations from a re-analysis of the deposited data

Results flagged for a closer look

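Among 15 sets of 4 old outer bark values (library measures and CPM of the 4 printed identifiers), 3 held a value far from the other libraries. For unselected normal values chance would give about 1 set in 20. That rate does not apply here, because the sets share libraries and the identifiers were picked by their differences in them. The principal components were also fitted to these libraries. All 3 concerned old replicate 1. Its most abundant gene took 0.805% of the counts, against 0.439% to 0.477% in the other old libraries. On the second principal component it lay at 95.4, against -63.9 to -52.0. Potri.010G002600 reached 1273 CPM there, against 75.6 to 151.2 CPM. A test with stems as blocks found 2839 genes whose age difference was not the same in outer and inner bark. The causes of these differences were not tested.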

How the results depend on the processing

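Counts of calls in outer bark stayed within 1.5 times under RLE and upper-quartile factors, limma voom and both other filters. DESeq2 called 7526 genes (3203 higher and 4323 lower in old stems), and gave no adjusted p for Potri.010G002600. All 14 libraries with group means gave 6093 (2353 and 3740), the stem as a random effect gave 2279 genes higher, and leaving out number 1 of both ages gave 9166 (3937 and 5229). Leaving out 1 library gave between 125 and 7285 genes, 23 to 3241 higher and 102 to 4044 lower. The numbers do not pair old with young stems: deviations of same-numbered libraries correlated at -0.08, 0.14 and -0.09, and old replicate 4 correlated best with young replicate 1 (0.26). With the replicate number as a block across ages, 222 genes passed (31 and 191). Of the alternatives for the 4 printed identifiers, 44 kept the call and 23 lost it.

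For the age difference between layers, leaving out 1 stem gave 781 to 2961 genes. Without the replicate block edgeR called 0 genes, with 1226 at an unadjusted p below 0.05, and limma voom with the block called 3126. That fit leaves out the pairing of layers, so the low number is no evidence that the layers changed alike. Depth limits single genes of low level, such as Potri.017G138800, whose young level rested on 1 count in replicate 2.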
